A study of Saccharomyces cerevisiae with 2 samples.

Results

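The genes described are the 8 that encode the membrane sector of the yeast vacuolar proton pump and the plasma membrane proton pump: VPH1, STV1, VMA3, VMA6, VMA9, VMA11 and VMA16, and PMA1. They were chosen by gene identifier from a table of 4579 genes of Saccharomyces cerevisiae, in which all 8 are present. The table comes from a study that set out to predict ribosomal elongation rates, and it holds 2 libraries of strain yJC2229, whose genotype the labels do not give. The first is of ribosome-protected fragments (RPF), the mRNA pieces that a ribosome shields from nuclease, purified as 80S ribosomes on a sucrose gradient. The other is of total RNA, broken by alkaline hydrolysis. Both came from cells grown at 24 °C in YPD of pH 6.5 with 2% glucose to mid-log phase, with no pretreatment, and cycloheximide, which halts elongating ribosomes, was present at lysis.

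Yeast cells move protons with a pair of unrelated pumps. The vacuolar ATPase acidifies the vacuole, Golgi and endosomes: its peripheral V1 sector splits ATP and turns a ring of proteolipid subunits in the membrane sector, V0, past a fixed subunit that carries protons across. Pma1 is a P-type ATPase that drives protons out across the plasma membrane, sets the gradient that nutrient uptake depends on, and is among the most abundant proteins of that membrane.

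Each library is single, so no p-value was computed and every interval below covers counting error only. The footprint columns hold 3756929 footprints over the listed genes, and the abundance column corresponds to 21353772 reads. Which library that column was made from is not stated. A gene's footprint to read ratio, its share of all footprints over its share of these reads, therefore equals translational efficiency only if the column was made from total RNA. Ratios were compared among the 2939 genes that reached 100 counts in both measures, called tested genes, and all 8 proton pump genes passed. Each culture was measured in bulk, so a level held by all cells cannot be told apart from one held by some of them.

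Levels per codon of reading frame spanned a wide range in both kinds of counts. The plasma membrane pump led in reads, and the main ring subunit of the vacuolar pump led in footprints. VMA3, which encodes the c subunit that fills most places of the ring, had 48.0 footprints per codon (95% interval 46.9 to 49.1) and 129 reads per codon. PMA1 had 18.8 footprints per codon (18.5 to 19.1) and 274 reads per codon. Among tested genes VMA3 stood 96th by footprints per codon and 107th by reads per codon. PMA1 stood 182nd by footprints per codon and 35th by reads per codon. The 7 genes of the membrane sector together took 0.381% of footprints and 0.323% of reads, and PMA1 alone took 0.460% of footprints and 1.18% of reads.

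**Figure D1:**
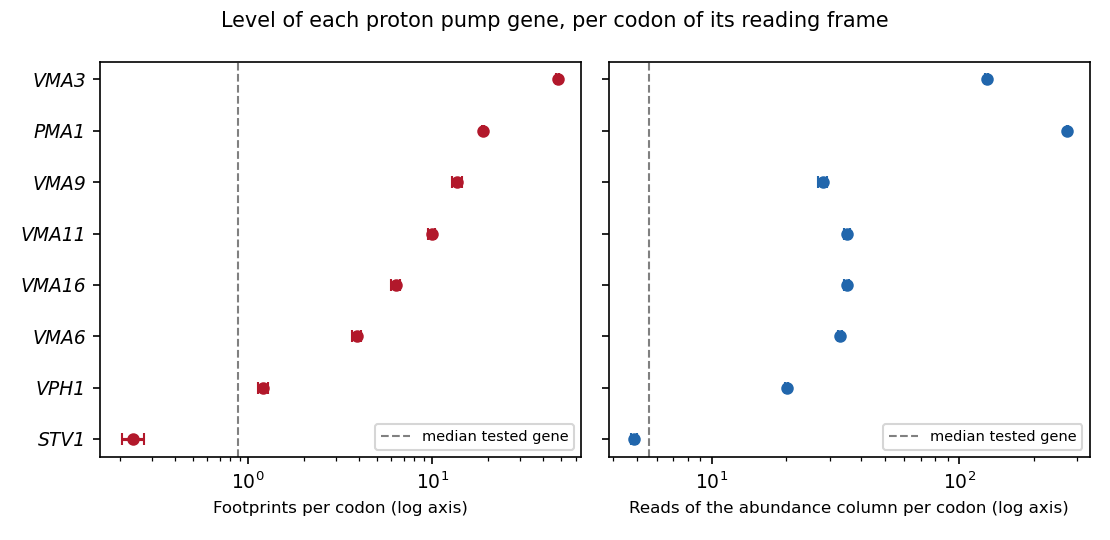
Footprints per codon (left) and reads of the abundance column per codon (right) of each gene, on log axes, with exact Poisson 95% intervals for counting error. Dashed lines mark the median tested gene, at 0.878 footprints and 5.58 reads per codon. STV1 is the lowest gene in both panels and lies below both lines, and the other 7 lie above them.

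The smaller subunits of the membrane sector came next in the order of footprints. VMA9, which encodes the small hydrophobic e subunit in a gene with introns, had 13.7 footprints per codon (12.8 to 14.5) and 28.0 reads per codon (26.9 to 29.3). VMA11, for the c' subunit found in fungal pumps, had 9.90 footprints per codon (9.43 to 10.4) and 35.2 reads per codon (34.3 to 36.2). VMA16, for the c'' subunit, had 6.32 footprints per codon (5.99 to 6.67) and 35.1 reads per codon (34.3 to 35.9). The last 2 genes had the same reads per codon within counting error, while their footprints per codon differed. VMA6, for the d subunit that couples the ring to the central stalk, had 3.88 footprints per codon (3.67 to 4.09) and 33.0 reads per codon (32.4 to 33.6). No intervals of neighbouring genes overlapped in the order of footprints per codon, which ran VMA3, PMA1, VMA9, VMA11, VMA16, VMA6, VPH1 and STV1.

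The proteolipid genes differ in how many copies of their product a ring holds: the c subunit is present in many copies, and c' and c'' in single copies. VMA3 had 4.84 times the footprints per codon of VMA11 (4.59 to 5.11), a gene of nearly the same length, with 161 codons for VMA3 and 165 for VMA11, stop codons included. In reads per codon VMA3 was 3.67 times VMA11 (3.57 to 3.78). Against VMA16, of 214 codons, VMA3 had 7.59 times the footprints per codon (7.16 to 8.05) and 3.69 times the reads per codon (3.59 to 3.79). VMA11 had 1.57 times the footprints per codon of VMA16 (1.46 to 1.68) and 1.01 times its reads per codon (0.971 to 1.04). The excess of the c subunit gene over both single-copy partners was thus present in reads and larger in footprints. VMA16 is the longer gene, and tested genes near its length had a lower median log2 footprint to read ratio than those near VMA3's, 0.58 against 0.87.

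VPH1 and STV1 encode alternative forms of the a subunit, the fixed part that the ring turns against. Pumps with Vph1 reside at the vacuole, and those with Stv1 at the Golgi and endosomes. VPH1, of 841 codons, had 1015 footprints and 16912 reads, or 1.21 footprints per codon (1.13 to 1.28) and 20.1 reads per codon. STV1, of 891 codons, had 212 footprints and 4322 reads, or 0.238 footprints per codon (0.207 to 0.272) and 4.85 reads per codon. VPH1 thus had 5.07 times the footprints per codon of STV1 (4.37 to 5.91) and 4.15 times its reads per codon (4.01 to 4.29). Both forms together had fewer footprints per codon than VMA6, whose product, like the a subunit, is present once in a pump. VMA6 is a shorter gene, with 346 codons.

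PMA1, at 919 codons close in length to VPH1, had 17280 footprints and 251729 reads. It had 15.6 times the footprints per codon of VPH1 (14.6 to 16.6) and 13.6 times its reads per codon (13.4 to 13.8). Its close relative PMA2, a P-type pump of the same family, had 47 footprints and 2058 reads. How reads matching both genes were assigned is not given in the sources used here, so the split between these genes is uncertain, more so for PMA2. No other annotated gene overlaps any of the 8 genes in RefSeq assembly R64.

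**Figure D2:**
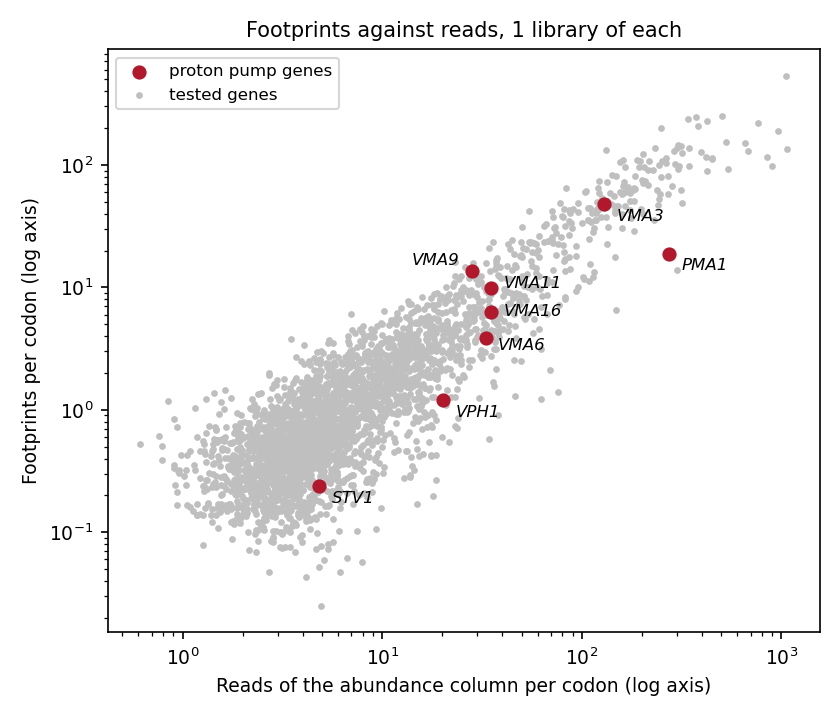
Footprints per codon against reads of the abundance column per codon, both on log axes, for the 8 proton pump genes (red) and the tested genes (grey). PMA1 and VPH1 lie in the lower part of the cloud for their reads, while VMA9 lies in its upper part.

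Footprint to read ratios were high in the short genes of the group and low in the long ones. VMA9 (YCL005W-A, chromosome III, 107023 to 107417), the shortest frame at 75 codons, had 1025 footprints against 2103 reads, with a ratio of 2.77 (2.57 to 2.99). VMA3 (YEL027W, chromosome V, 100769 to 101251) had 7724 footprints against 20833 reads, with a ratio of 2.11 (2.05 to 2.16). These 2 of 8 genes were more than 2-fold higher than an even share, the size rule used here, as were 12.5% of tested genes. VMA11 (YPL234C, chromosome XVI, 104946 to 105440) had 1634 footprints against 5816 reads, with a ratio of 1.60 (1.51 to 1.69).

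VMA16 (YHR026W, chromosome VIII, 160844 to 161485) had 1353 footprints against 7504 reads, with a ratio of 1.02 (0.966 to 1.09), which did not differ from an even share beyond counting error. VMA6 (YLR447C, chromosome XII, 1026856 to 1027893) had 1341 footprints against 11413 reads, with a ratio of 0.668 (0.631 to 0.707). The 3 longest frames were more than 2-fold lower, against 21.1% of tested genes. Of these, VPH1 (YOR270C, chromosome XV, 828052 to 830574) had a ratio of 0.341 (0.320 to 0.363). STV1 (YMR054W, chromosome XIII, 383303 to 385975) had a ratio of 0.279 (0.242 to 0.320). PMA1 (YGL008C, chromosome VII, 479910 to 482666) had a ratio of 0.390 (0.384 to 0.396). The median log2 ratio was 0.04 over the 7 membrane sector genes and -0.14 over all tested genes. Were the abundance column divided by length, as its header FPKM says, the log2 ratio would be 0.21 for VMA6 in place of -0.58 and 1.52 for VMA16 in place of 0.04. Both VMA16 and VMA11, the latter at 2.54, would then pass 2-fold. All coordinates are those of assembly R64, the sacCer3 build.

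Ratios of the tested genes fell with the length of the frame, the median log2 ratio being 1.29 for tested genes near the length of VMA9 and -1.57 for those near that of PMA1. Each gene was therefore set against tested genes of like length, the shorter frame of the pair being at least 0.8 times as long as the longer. Against these, 3 of the 8 genes lay above the median and 5 below, while 49.4% of tested genes lay above theirs. PMA1 stood 0.21 above on the log2 scale, a fold of 1.16, and exceeded 63.3% of 313 genes. VMA3 stood 0.20 above and exceeded 67.5% of 366 genes, and VMA9 stood 0.18 above and exceeded 65.9% of 88 genes.

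VMA6 and VMA16 stood lowest for their lengths. VMA6 had a log2 difference of -0.55 and exceeded 14.1% of 718 genes, whose 10th to 90th percentiles ran from a log2 ratio of -0.70 to 0.64. VMA16 had a log2 difference of -0.55 and exceeded 15.3% of 485 genes, whose percentiles ran from -0.10 to 1.14. STV1 differed by -0.32, VPH1 by -0.17 and VMA11 by -0.16 on this scale. None of the 8 genes lay more than 2-fold above or below genes of like length, against 2.79% of tested genes above and 2.69% below, and all 8 lay between the 10th and 90th percentiles of their own windows. VMA3 and VMA11, which are nearly equal in length, had ratios of 2.11 and 1.60, with intervals that do not overlap.

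**Figure D3:**
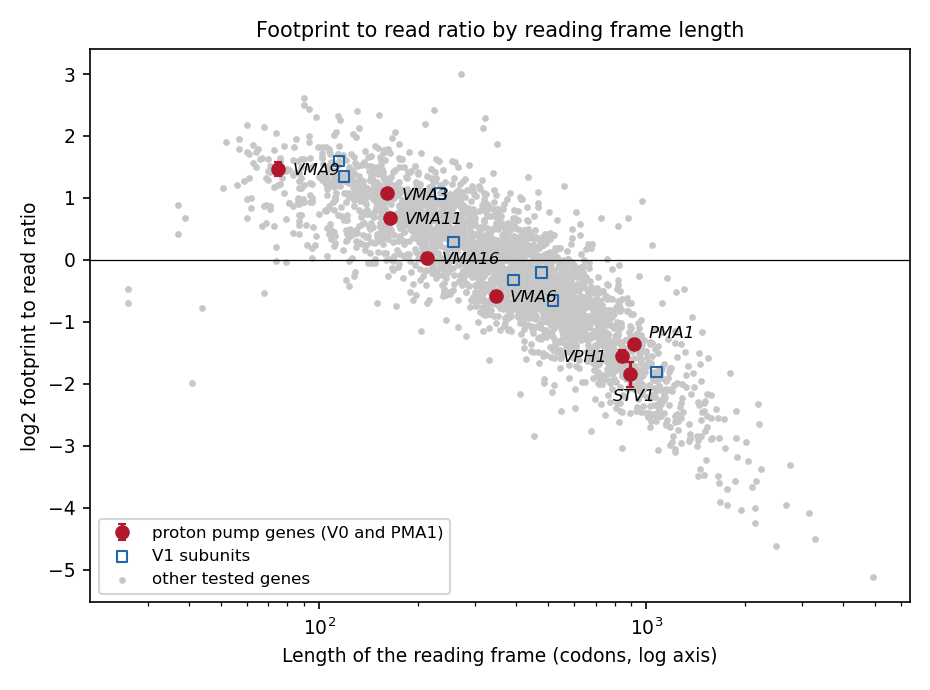
The log2 footprint to read ratio against the length of the reading frame in codons, on a log axis, for the 8 proton pump genes (red, with 95% counting intervals), the 8 V1 subunits (blue squares) and the other tested genes (grey). The red points run along the cloud, from 1.47 at 75 codons (VMA9) to -1.84 at 891 codons (STV1).

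Other genes of the same machines gave the context. All 8 V1 genes were tested, with a median log2 ratio of 0.04. Of these, 5 lay above genes of like length, against 49.4% of tested genes. VMA10, the G subunit of the peripheral stalk, had the highest ratio at 3.03 (2.88 to 3.17), and VMA1, the catalytic A subunit, whose frame also encodes an intein, had the lowest at 0.285 (0.275 to 0.295). VMA7 (F, 2.55), VMA4 (E, 2.11), VMA8 (D, 1.22), VMA13 (H, 0.867), VMA5 (C, 0.797) and VMA2 (B, 0.634) lay between. In reads per codon the V1 genes ran from 22.7 for VMA7 to 62.6 for VMA1. The membrane sector genes ran from 4.85 for STV1 to 129 for VMA3, the only one of either sector above the V1 range.

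The 5 factors that assemble V0 in the endoplasmic reticulum had a median log2 ratio of 1.07, with 3 more than 2-fold higher, against 12.5% of tested genes, and 1 above genes of like length, against 49.4%. VMA22 was highest at 2.84 (2.35 to 3.43) on 170 footprints, and VOA1 lowest at 1.15 (1.09 to 1.21). PKR1 and VMA21 had ratios of 2.10 and 2.10, and VPH2 1.35. Of the RAVE complex, which rejoins V1 to V0 after glucose returns, SKP1 was tested, with 673 footprints, 2810 reads and a ratio of 1.36. RAV1 and RAV2 were under the minimum, with lower ratios of 0.137 (0.104 to 0.177) on 60 footprints and 0.412 (0.288 to 0.573) on 38.

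PMA1 can be set beside other P-type ATPases, of which 11 of 14 listed genes were in the table and 6 were tested. All 6 were more than 2-fold lower, against 21.1% of tested genes of any length, with a median log2 ratio of -2.30. Of the 6, 2 lay above genes of like length, against 49.4% of tested genes. The manganese and calcium pump of the Golgi, PMR1, had a ratio of 0.243 (0.218 to 0.269), and SPF1, a P-type ATPase of the endoplasmic reticulum, 0.246 (0.230 to 0.264). The phospholipid flippase NEO1 was highest at 0.258 (0.218 to 0.304) and the flippase DRS2 lowest at 0.136 (0.113 to 0.161). The ratio of PMA1, 0.390, exceeded all 6 of these, whose frames of 951 to 1572 codons were all longer. The sodium pump ENA1, of 1092 codons, had 60 footprints, under the minimum, and a higher ratio of 0.547 (0.412 to 0.713).

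Of 7 listed genes whose products act on or transport Pma1, 1 lay above genes of like length, against 49.4% of tested genes, and 3 lay more than 2-fold below them, against 2.69%. Their median log2 ratio was -1.18, which would turn to 0.31 if the abundance column were divided by length. The lowest ratio was that of PMP1, a small proteolipid that regulates Pma1, at 0.251 (0.222 to 0.284) on 268 footprints and 6058 reads. It stood -2.66 from genes of like length on the log2 scale. Its paralogue PMP2, with 492 footprints and 4767 reads, had a ratio of 0.587 (0.534 to 0.644) and stood at -1.55. EXP1, a cargo receptor for Pma1 export, had a ratio of 0.617 (0.535 to 0.708) and stood at -1.66. AST1, which targets Pma1 to the plasma membrane, was highest at 0.886 (0.756 to 1.03), on 189 footprints. PMP1 and PMP2 have 41 and 44 codons, so the comparison for PMP1 rests on 5 tested genes of like length and that for PMP2 on 6. Reads of this paralogous pair may also not be separable.

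The genes most like each of the 8 were named by their distance in log2 footprints per codon and log2 reads per codon, a likeness over 2 measures of 1 library each. VMA3 lay nearest to the ribosomal protein genes RPL13B, with 49.1 footprints and 125 reads per codon, and RPS16A, with 49.1 and 136. VMA9 lay nearest to ATP15, a subunit of the mitochondrial ATP synthase, with 14.7 footprints and 28.4 reads per codon. VPH1 lay nearest to the methionyl-tRNA synthetase gene MES1 and STV1 to the nucleoporin gene NIC96. PMA1 had no near neighbour: the nearest gene, the elongation factor YEF3, with 13.8 footprints and 300 reads per codon, lay at a log2 distance of 0.46. The nearest gene of each of the other 7 lay at 0.111 or less.

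The genes also differ in what their frames are made of. Codons preferred in highly expressed yeast genes, 23 of the 61 sense codons, made up 83.4% of the sense codons of PMA1 and 83.1% of those of VMA3. The median tested gene had 48.2% and the 90th percentile was 70.1%. VMA16 had 62.0%, VMA11 60.98%, VPH1 59.8% and VMA6 57.1%, while VMA9 (45.9%) and STV1 (45.8%) lay below the median gene. Of the pair of a subunit genes, VPH1 had the larger share.

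The ring genes were rich in small residues. Glycine and alanine codons made up 25.6% of VMA3, 23.8% of VMA11 and 21.1% of VMA16, against a tested median of 11.6%, which placed them 18th, 32nd and 66th of 2939. Codons for charged residues made up 7.50% of VMA3, 7.93% of VMA11, 10.8% of VMA9 and 11.3% of VMA16, against a median of 24.7%. VMA9 had the largest share of leucine, isoleucine, valine, phenylalanine and methionine codons of the 8 genes, 44.6%, the 11th highest of the tested genes. By codon frequencies, PMA1 was nearest to PDC5, YEF3 and GND1, at distances of 0.120, 0.134 and 0.144, where the median listed gene of at least 100 codons lay at 0.428. VMA3 was nearest to the mitochondrial ADP/ATP carrier PET9 (0.251) and the hexose transporters HXT7 (0.268) and HXT3 (0.273), against a median of 0.507.

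Footprints were next compared between codons of the same gene. The value of a codon is its footprints per occurrence over the mean footprints per codon of that gene. It pools all places where the codon occurs, since the table holds no positions. Orders of values below are among sense codons with at least 3 occurrences in the gene, and rarer codons are named as such. In PMA1 the most footprints lay on the leucine codon TTG, with 1720 on 62 occurrences and a value of 1.48 (1.41 to 1.55), against 1.01 for TTG over all tested genes. Alanine GCT (1470 footprints, 74 occurrences, value 1.06) and glycine GGT (1364, 73 occurrences, 0.994) followed. The highest value was that of tryptophan TGG, at 1.78 (1.62 to 1.94), followed by aspartate GAC at 1.68 (1.56 to 1.80). The lowest was that of glutamine CAA, at 0.370 (0.318 to 0.428), a codon that is also low over all tested genes (0.620).

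VMA3 held its footprints more unevenly. Its 3 proline codons CCT carried 655 footprints, a value of 4.55 (4.21 to 4.91), against 1.76 for CCT over all tested genes. Among codons with at least 3 occurrences, isoleucine ATC followed with 449 footprints on 4 occurrences, a value of 2.34 (2.13 to 2.57), and tyrosine TAC with 420 on 5, at 1.75 (1.59 to 1.93). Alanine GCT carried the most footprints, 829 on 11 occurrences, at 1.57 (1.47 to 1.68). Values of codons with at least 3 occurrences spanned 0.445 to 4.55 in VMA3 and 0.370 to 1.78 in PMA1, where most codons are averaged over more places.

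Among codons with at least 3 occurrences in VMA11, the threonine codon ACT led, with 186 footprints on 3 occurrences and a value of 6.26 (5.39 to 7.23), against 0.765 over all tested genes. Isoleucine ATC followed at 3.71 (3.14 to 4.36), so ATC was high in both VMA3 and VMA11, but not in VMA16 (0.527, 10 footprints). Of the 7 genes with at least 3 ATC codons, these 2 had values above 2, as did 6.69% of the 2465 tested genes with that many. Under the same minimum the valine codons GTA (2.85, 2.14 to 3.71) and GTG (2.56, 2.07 to 3.12) led in VMA16. In VMA9 a single leucine codon CTC held 97 footprints, a value of 7.10 (5.76 to 8.66). Rare codons were high in other genes too. Single codons reached 6.26 in VMA11 (CCC, 62 footprints), 5.85 in VMA16 (GCG, 37) and 5.79 in VMA3 (GTG, 278). In PMA1, GCA reached 3.96 with 149 footprints on 2 occurrences.

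The glycine codon GGT is the most frequent codon of VMA3 and VMA11 and the next most frequent after ATT in VMA16. It held few footprints per occurrence in all 3 ring genes. Its value was 0.455 in VMA3 (480 footprints on 22 occurrences), 0.388 in VMA11 (50 on 13) and 0.447 in VMA16 (48 on 17). It was 0.994 in PMA1, 1.22 in VPH1, 1.32 in VMA6 and 1.80 in STV1, against 0.974 over all tested genes. Of the 6 proton pump genes with at least 10 GGT codons, the 3 ring genes lay below 0.5, as did 21.1% of 1510 tested genes with that many. This codon was singled out after its values were seen. Valine GTT lay below the gene mean in all 8 genes, from 0.0753 in VPH1 to 0.688 in VMA6, as it did in 79.2% of tested genes with at least 3 GTT codons.

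VPH1 and VMA6 gave sparser profiles. In VPH1 glycine GGG (4.14, 2.32 to 6.83) and serine AGC (3.94, 2.37 to 6.15) had the highest values of codons with at least 3 occurrences, on 15 and 19 footprints, while valine GTT had 2 footprints on 22 occurrences. In VMA6 leucine TTG had the most footprints, 117, and the highest value under this minimum, 1.89 (1.56 to 2.26). STV1, with 212 footprints on 891 codons, left 17 of its 59 sense codon types with no footprint. Lysine AAG, of these the type with the most occurrences, had 0 footprints on 22. Counting error allows it to be up to 0.705 of the gene mean, against 0.795 over all tested genes. Isoleucine ATC, with 0 on 21, was alike, at up to 0.738 against 0.758. Single codons of STV1 are not described further at this depth.

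Preferred codons held fewer footprints per occurrence than the other sense codons in 5 of the 8 genes, as they did in 85.9% of tested genes. The fold of preferred over other codons was 0.542 in VMA3 (0.515 to 0.570), 0.585 in VMA16 (0.525 to 0.652), 0.754 in VMA9 (0.663 to 0.857), 0.773 in VPH1 (0.681 to 0.877) and 0.855 in VMA6 (0.766 to 0.954). The intervals of VMA11, at 1.06 (0.958 to 1.17), and STV1, at 1.13 (0.850 to 1.49), held 1. Without ACT, a preferred codon, the log2 fold of VMA11 turned to -0.16. ACT tied for the most footprints per occurrence, 62, with CCC, which is not a preferred codon. The fold without CCC was not computed, so this turn depends on which of the tied codons is left out. PMA1 went the other way: its preferred codons had 19.2 footprints per occurrence and its other codons 16.7, a fold of 1.15 (1.101 to 1.198). Its log2 fold of 0.20 ranked 203rd highest of the tested genes, whose median was -0.40. PMA1 and VMA3 thus differed in direction, while preferred codons made up 83.4% of PMA1 and 83.1% of VMA3.

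**Figure D4:**
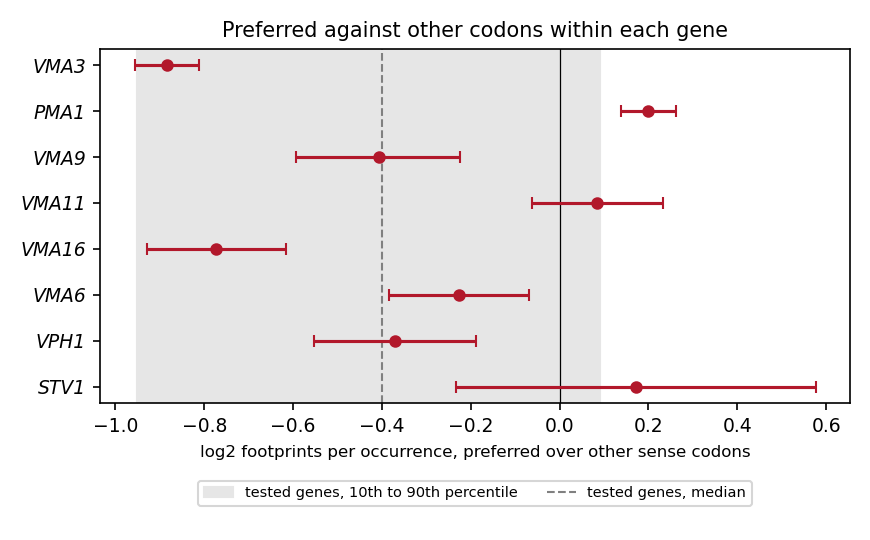
The log2 fold of footprints per occurrence, preferred over other sense codons, within each gene, with exact conditional 95% intervals for counting error. The grey band spans the 10th to 90th percentiles of tested genes, -0.95 to 0.09, and the dashed line is their median. PMA1 at 0.20 lies right of the band, as does STV1 at 0.17, whose interval spans 0, and VMA3 at -0.88 near its left edge.

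Stop codons held unequal counts. The stop codon of VPH1 (TAA) held 14 footprints, 11.6 times the gene mean, and that of VMA6 (TGA) held 20, or 5.16 times. The stop codons of VMA3 (60 footprints, 1.3 times), PMA1 (20, 1.06 times), VMA11 (8, 0.808 times), VMA9 (11, 0.805 times) and VMA16 (5, 0.791 times) were near their gene means. Over all tested genes the values were 4.11 for TAA and 4.96 for TGA. The stop codon of STV1, at 12.6 times (2.60 to 36.8), held 3 footprints. Each stop value rests on a single codon, and the counting interval ran from 6.34 to 19.5 for VPH1 and from 3.15 to 7.97 for VMA6.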

How the data were processed

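Ribosome footprints and total RNA of 1 culture type were sequenced, 1 library each. Per the submitters' processing notes, HISAT2, Bowtie2, cutadapt and HTSeq were used, with build sacCer3. No source used here states their settings, the use of strand or what was done with reads that match several genes. Per the file headers, the deposited RPF columns are raw footprint counts per gene and codon, for 64 codons, each summed over its places. The columns headed as totals hold codon occurrences, since 4575 of 4579 genes have 1 stop codon in them. The deposited abundance column is headed FPKM, but 100% of its values are whole multiples, within 0.01 reads, of 1 step of 0.0459, so they were read as CPM (scaled to the library total), not divided by length, and turned into reads by that step. RNA counts per codon were not analysed here, so sequence preferences of library preparation were not divided out.

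Ratios carry exact conditional binomial (Clopper-Pearson) and levels exact Poisson 95% intervals (scipy 1.17.1). The reads are amplified and carry no molecular identifiers, so the intervals cover counting error only. The ratio calculation was tested on simulated data. Named genes were the 8 members, all V1 genes, the extremes of each list, the nearest genes, and in each member the 3 sense codons highest in footprints and in value; others were chosen after their values were seen. Members and lists were chosen with earlier results of these data known. Symbols are from RefSeq, which matched 4578 of 4579 identifiers.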

Additional observations from a re-analysis of the deposited data

How the results depend on the processing

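No paired analysis was possible because there is a single library of each kind, so none could be left out either. Leaving out stop codons kept every ratio and fold of the 8 genes within its counting interval. If the abundance column is an FPKM, as headed, the log2 ratio turned to 0.21 for VMA6, and became -2.04 for VPH1, -2.41 for STV1, 2.97 for VMA3, 4.47 for VMA9, 2.54 for VMA11, 1.52 for VMA16 and -1.97 for PMA1. The list medians became 0.90 (V1), 3.23 (assembly), 2.07 (RAVE), -3.46 (P-type) and, with the sign turned, 0.31 (genes acting on Pma1). Scaling to the median gene adds 0.14 to every log2 ratio, which gave -1.42 for VPH1, 1.21 for VMA3, -0.45 for VMA6, 1.61 for VMA9, 0.81 for VMA11, 0.17 for VMA16, -1.22 for PMA1, 0.18 for V1 and 0.58 for RAVE. With a minimum of 30 counts, 1476 genes were more than 2-fold lower, and 1592 of all 4579 listed genes, against 619 of the 2939 tested genes. Those more than 2-fold higher were 408 and 410, against 366. The share of 21.1% lower thus holds for the minimum of 100 only. With the minimum of 30, the RAVE median, which rests on 1 gene in the main setting, turned to -1.28, and the P-type median was -2.55. Capping each gene's codons at its 90th percentile gave log2 ratios of 0.55 for VMA11 and -1.28 for PMA1, and leaving out the top codon gave -1.33 for PMA1. The log2 fold of VMA3 over VMA11 was 2.36 without the top codon and 2.39 capped, and that of VMA11 over VMA16 0.52 capped, each with its direction kept. Differences from genes of like length became 0.11 for VMA3 and 0.29 for PMA1 in a window of 0.9 to 1.1, and -0.0696 for VPH1 and 0.31 for PMA1 with a smooth trend. The log2 fold of preferred over other codons, without the codon with the most footprints per occurrence and then capped, was -0.73 and -0.50 for VMA3, -0.20 and -0.20 for VMA9, -0.16 and -0.0851 for VMA11 and 0.27 and 0.28 for PMA1. It was -0.61 capped for VMA16. In VMA11 the codon left out was ACT, which tied with CCC. The list alternatives and those of VMA11 over VMA16 were chosen after the data were seen.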
